A study of Saccharomyces cerevisiae with 13 samples.

Results

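Newly replicated chromatin of *rtt109Δ* yeast was compared with the bulk chromatin of the same strain at each gene. The comparison used the 10 nascent libraries sampled at 2, 4, 6, 8 and 15 min in both replicates and the 1 bulk library, 11 of the 13 libraries of the series. Of the 6326 genes listed, 5333 were compared, and for nucleosome positioning 4063. The 547 genes of chromosome 12 were left out because replicate 2 was listed at 0 over that whole chromosome. A further 408 genes lacked enough bins around the transcription start site (TSS), and 38 had almost no signal over the gene body.

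All cells were asynchronous derivatives of W303. They carry the h-ENT1 nucleoside transporter and, as the labels spell it, HPV-Thymidine kinase, which let yeast take up and use the thymidine analogue EdU. For the nascent libraries they grew with EdU for 5 min and with an excess of thymidine for 5 min, and were moved to fresh medium with thymidine. The label of the bulk library gives no time of thymidine incubation. Cells were fixed with formaldehyde and digested with micrococcal nuclease (MNase). DNA that carried EdU was coupled to biotin and pulled down (NChAP), and its sequence reads are the nascent signal, whereas bulk chromatin was sequenced without a pulldown. Each replicate is 1 culture sampled over time, and bulk is 1 library, so no test of nascent against bulk was possible. Each difference is described by whether all 10 nascent libraries lay on the same side of bulk. Error in the bulk library alone would also place some genes on one side of all 10, and how many is unknown. The titles name an *rtt109* deletion while the source label names a *chd1* deletion. *RTT109* itself had a mean signal between 0.023 and 0.067 in the 2 to 15 min libraries of replicate 1 and 0.063 in bulk, and *CHD1* lay between 0.80 and 1.15 in the 10 libraries and at 1.05 in bulk. The *CHD1* gene was therefore present in every library, and *RTT109*, on chromosome 12, could not be read in replicate 2.

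Behind a replication fork nucleosomes are rebuilt from parental and new histones, and their positions sharpen as remodelling enzymes and transcription act on the new template. Rtt109 acetylates lysine 56 of new histone H3 before its deposition. At an active yeast gene a nucleosome-depleted region (NDR) lies upstream of the TSS, a well placed +1 nucleosome just after it, and a regular array over the gene body.

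The deposited signal is MNase read coverage in 20 bp bins relative to the mean of the library, so that 1 is the average bin. Depth was between 4.94 and 78.1 reads per bin in the 10 nascent libraries and 58.6 in bulk, and the shallowest was replicate 1 at 4 min, with 20.4% of bins at 0 against 0.968% in bulk. Signals were averaged over the promoter (-200 to 0 bp), the +1 region (0 to 100 bp) and the gene body (100 to 1000 bp) and compared as log2(value + 0.1). Position contrast is log2 of the signal at the nucleosome peaks +2 to +6 over that at the troughs after +1 to +6. The median gene body difference from bulk was -0.13 ± 0.017 in replicate 1 and 0.05 ± 0.014 in replicate 2 (SD, n = 5 libraries each). The mean signal outside chromosome 12 was between 0.977 and 0.990 in replicate 1, between 1.11 and 1.14 in replicate 2 and 1.08 in bulk, so the replicates also stood on either side of bulk in their scale.

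The aligned profiles lay in place on 13 of the 15 chromosomes compared. There the mean bulk profile of both gene strands together correlated at 0.97 or above with that of all genes outside chromosomes 2 and 10. By gene strand the lowest correlation of bulk was 0.86, and its best fit lay up to 20 bp from place. On chromosome 10 the bulk profile of genes on the W (Watson) strand lay 300 bp upstream of its place (r 0.08 in place, 0.97 at the best fit). That of genes on the C (Crick) strand lay 320 bp downstream (0.11 and 0.95). Nascent profiles lay 280 and 300 bp out of place in the same directions. On chromosome 2 the profiles lay 60 bp out of place in bulk and 40 bp in nascent chromatin, upstream on W and downstream on C. On average the windows of the 354 and 401 genes there are therefore displaced from the features they are named for, and named genes on these chromosomes are pointed out below. Within the other chromosomes nascent profiles lay 14 to 20 bp downstream of bulk on W genes and 10 to 14 bp upstream on C genes, about 1 bin or less, so a difference from bulk also holds this offset. Without chromosomes 2 and 10, 613 of 4578 promoters were below bulk in all 10 and 402 above. The median promoter difference was then -0.12 on W genes and -0.01 on C genes.

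Promoters of 3 ribosomal protein genes lay farthest below bulk in nascent chromatin. *RPL13B*, *RPL23B* and *RPL20B* encode proteins of the large ribosomal subunit. Ribosomal protein genes are among the most transcribed genes of yeast, and Rap1, a DNA-binding factor, binds upstream of most of them. The sequences below run from 450 to 151 bases before the annotated start of each gene in RefSeq, assembly R64. Signal was placed from the TSS instead. The distance between TSS and gene start was not measured for these genes, so how far sequence and signal windows overlap is not known. Capitals mark CACCC, a core of the Rap1 site, and CCNTACA, a shortened form of it, on either strand.
RPL13B (chr13:551358-551657, - strand): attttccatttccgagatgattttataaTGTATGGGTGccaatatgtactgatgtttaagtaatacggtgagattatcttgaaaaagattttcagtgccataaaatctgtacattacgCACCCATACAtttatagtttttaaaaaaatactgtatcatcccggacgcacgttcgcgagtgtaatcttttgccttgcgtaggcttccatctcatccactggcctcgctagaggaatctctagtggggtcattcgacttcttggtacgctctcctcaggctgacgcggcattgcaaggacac
RPL23B (chr5:396319-396618, + strand): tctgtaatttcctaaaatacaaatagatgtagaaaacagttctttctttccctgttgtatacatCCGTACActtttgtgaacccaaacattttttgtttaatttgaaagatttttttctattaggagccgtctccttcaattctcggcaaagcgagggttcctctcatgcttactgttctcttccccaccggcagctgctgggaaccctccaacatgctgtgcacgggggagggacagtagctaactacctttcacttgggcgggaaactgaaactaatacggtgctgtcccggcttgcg
RPL20B (chr15:901345-901644, - strand): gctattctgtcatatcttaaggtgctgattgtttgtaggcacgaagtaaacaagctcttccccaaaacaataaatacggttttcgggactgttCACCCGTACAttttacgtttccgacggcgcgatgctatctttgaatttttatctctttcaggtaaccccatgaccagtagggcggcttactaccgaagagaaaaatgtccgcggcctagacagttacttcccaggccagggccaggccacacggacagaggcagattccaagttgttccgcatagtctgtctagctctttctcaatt

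The promoter signal of *RPL13B* was 0.028, 0, 0.060, 0.035 and 0 from 2 to 15 min in replicate 1 and 0.046, 0.023, 0.086, 0.026 and 0.117 in replicate 2, against 0.459 in bulk. Its mean log2 difference from bulk was -2.02 ± 0.36 (SD, n = 10). All 10 nascent values lay below bulk without overlap, and the highest was the last of replicate 2. *RPL23B* had a promoter signal of 0.175, 0.184, 0.0891, 0.195 and 0.0605 in replicate 1 and 0.0904, 0.116, 0.115, 0.0533 and 0.225 in replicate 2, with 0.726 in bulk and a mean difference of -1.89 ± 0.38 (SD, n = 10). *RPL20B* ranged from 0.0177 to 0.156 with a median of 0.0623 in the 10 nascent libraries and was 0.498 in bulk, a mean difference of -1.82 ± 0.32 (SD, n = 10). The fourth promoter, that of *POM152*, which encodes a membrane ring protein of the nuclear pore, ranged from 0.237 to 0.607 with a median of 0.421 and stood at 1.42 in bulk. At all 4 promoters both replicates lay below bulk throughout, as the plot of the promoters farthest from bulk shows.

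**Figure D1:**
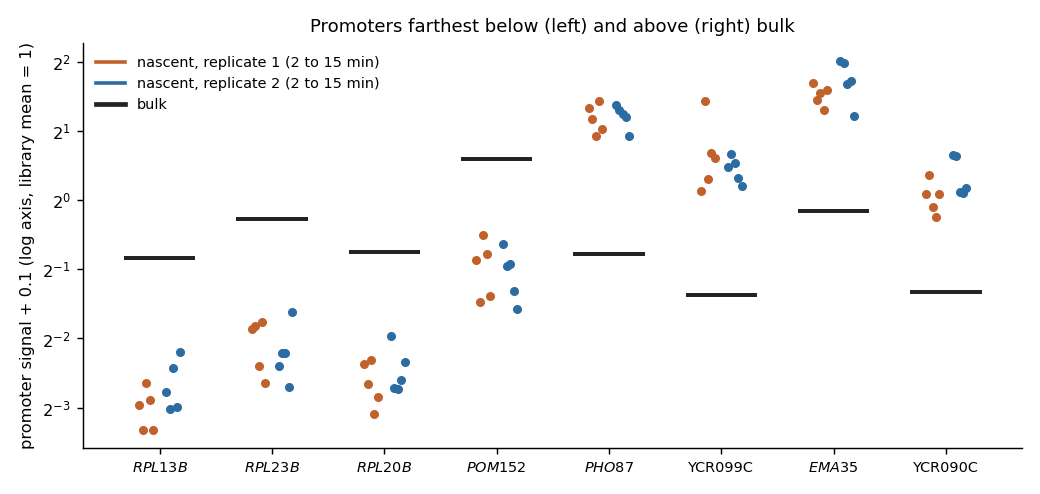
Promoter signal + 0.1 on a log2 axis for the 4 promoters farthest below and the 4 farthest above bulk. Points are the 10 nascent libraries in order of time within each replicate, and bars are the bulk library. No nascent value crosses the bar, and the 4 promoters above bulk are all on chromosome 3.

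Of the 107 ribosomal protein genes compared, 47 had a promoter below bulk in all 10 libraries and 0 had one above. Over all genes 14.4% were below and 8.27% above. Without chromosomes 2 and 10 the list had 43 of 92 below, and with bulk moved onto the nascent profile by strand 46 of 107. The median of the mean differences was -0.62 over these genes and -0.08 over all genes. The median promoter signal of the list was 0.38 in bulk, and the median over its genes of the mean nascent signal was 0.21, while over all genes both were 0.71. By subunit, 29 of 57 *RPL* genes and 17 of 45 *RPS* genes were below in all 10, and 1 of 5 genes that match *RPP*, which here include *RPP1*, a subunit of RNase P and not of the ribosome. After the 3 genes above, the lowest mean differences were -1.53 ± 0.45 at *RPL27A*, -1.47 ± 0.62 at *RPL36B* and -1.44 ± 0.53 at *RPS24B* (SD, n = 10 each). Of the 107 promoters, 95 had a mean difference below 0, and 15 lay below bulk by over 0.5 on the log2 scale in all 10, as did 69 (1.29%) of all genes. At the other end *RPS9A* had a mean difference of 0.64 ± 0.59 (SD, n = 10) with 8 libraries above bulk and 2 below, and both signals were low, with a nascent median of 0.216 and 0.058 in bulk.

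Within the window the difference lay in the upstream part, and it reached beyond the window. The median over ribosomal protein genes was below bulk in all 10 libraries from the bin at -370 bp. In the bin at -290 bp it was between 0.135 and 0.264 in the 10 libraries and 0.393 in bulk. From -200 to -100 bp the median signal over ribosomal protein genes was between 0.0788 and 0.21 in the 10 nascent libraries and 0.372 in bulk, and 54 of 107 genes were below bulk in all 10. From -100 to 0 bp it was between 0.172 and 0.357 against 0.338, and the ranges touched, with 20 genes below and 3 above in all 10. Over all 5333 genes the median from -200 to -100 bp was between 0.523 and 0.736, on both sides of the 0.611 of bulk. Of these 5333 genes 744 were below bulk in all 10 and 503 above there. From -100 to 0 bp 753 were below and 635 above. The +1 region of the same ribosomal protein genes showed no such shift, with 12 below and 5 above bulk in all 10 and a median difference of -0.05, and over all genes 18.7% were below and 4.54% above. Dividing each signal by the mean of its gene from -500 to 1000 bp left 42 of the 107 promoters below and 0 above, against 9.09% and 7.65% of all genes. When the library at 0 min was added, 35 of 107 were below, with that at 25 min 13, and with both 11. The median of the list from -200 to -100 bp was 0.981 at 25 min.

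**Figure D2:**
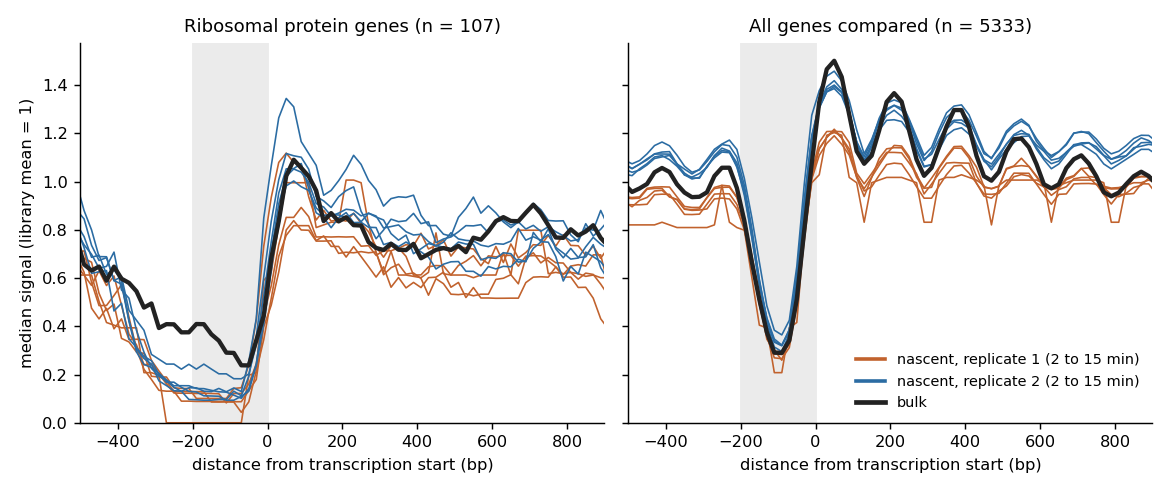
Median signal in 20 bp bins from 500 bp upstream to 900 bp downstream of the TSS over 107 ribosomal protein genes (left) and 5333 genes (right). Each thin line is a nascent library, the thick line is bulk, and grey marks the promoter window. Over ribosomal protein genes all nascent lines lie under bulk from the bin at -370 bp, left of the grey band, to that at -70 bp. Over all genes the NDR of bulk lies among the nascent lines.

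The shortened Rap1 site CCNTACA was searched on both strands in the 300 bases shown above, for the 4934 genes with a locus tag in R64. It was found in 60 of the 107 ribosomal protein promoters and in 11.2% of all promoters. It was in 33 of the 47 that were below bulk in all 10 and in 27 of the other 60, with median differences of -0.74 where it was present and -0.47 where it was not. In the window from 250 bases before to 50 after the gene start the order was the reverse. There it was in 3 of the 47 and 12 of the other 60, against 8.9% of all promoters, and the median was -0.37 in the 15 genes with it and -0.71 in the 92 without. Outside the ribosomal protein genes the 491 promoters with it had a median difference of -0.07 and the 4336 without it -0.08. CACCC, which overlaps CCNTACA where they run together, was in 52 of the 107 and in 22.8% of all. A match is a description of the letters and no sign of a bound factor, and this motif and window were chosen after the values were seen.

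Other motifs were compared among promoters outside the ribosomal protein genes. The Reb1 site TTACCCG was in 9.69% of the 681 promoters outside the ribosomal protein genes that were below bulk in all 10, in 6.97% of the 402 above and in 7.26% of all. The TATA box TATAAA was in 32%, 43.8% and 38.7% of the same groups. AAAAAAA was in 36.3%, 47.5% and 44.6%, the share being higher among promoters above bulk than among those below. In these groups CCNTACA was in 10.7%, 8.46% and 11.2%.

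The promoters farthest above bulk were all on chromosome 3. The promoter of *PHO87*, which encodes a low-affinity phosphate transporter, had signals of 2.43, 2.17, 1.80, 2.6 and 1.95 from 2 to 15 min in replicate 1 and 2.50, 2.37, 2.28, 2.21 and 1.80 in replicate 2, with 0.483 in bulk. The mean difference was 1.98 ± 0.18 (SD, n = 10). YCR099C followed with 1.91 ± 0.37, *EMA35* with 1.78 ± 0.26 and YCR090C with 1.51 ± 0.29 (SD, n = 10 each). YCR099C and *EMA35* are neighbours near the right end of the chromosome. Divided by the mean of the gene itself, *PHO87* kept a difference of 0.74 and stayed above bulk in all 10, and *EMA35* fell to 0.14 with values on both sides.

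Outside that chromosome, the promoters farthest above bulk after division by the mean of the gene were those of *DSF1*, a mannitol dehydrogenase, *PTC2*, a type 2C protein phosphatase, and *DPB3*, a subunit of DNA polymerase epsilon that lies on chromosome 2. They were chosen after their values were seen. The undivided signal of *DSF1* ranged from 0.579 to 1.61 with a median of 0.928 in the nascent libraries, against 0.336 in bulk. *PTC2* ranged from 0.430 to 1.03 with a median of 0.584, against 0.285. *DPB3* ranged from 0.222 to 0.772 with a median of 0.353, against 0.121. Each stood above bulk in all 10 with both scalings.

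Signal over whole chromosomes differed between nascent and bulk. On chromosome 3, 108 of 148 genes had a gene body signal above bulk in all 10 libraries and 3 below, where 9.39% of all genes were above and 15.5% below. The median difference of its genes was 0.48, 0.43, 0.61, 0.65 and 0.77 from 2 to 15 min in replicate 1 and 0.63, 0.69, 0.76, 0.88 and 0.85 in replicate 2, higher at 15 than at 2 min in both. On chromosome 1, 52 of 85 genes were below bulk in all 10 and 2 above, with a median difference between -0.62 and -0.25. In levels, the median gene body signal of chromosome 3 was between 1.75 and 2.31 in nascent libraries and 1.20 in bulk. That of chromosome 1 was between 1.02 and 1.31 against 1.64. On the other 13 chromosomes these levels were between 0.918 and 1.29 in nascent libraries and between 1.07 and 1.20 in bulk. Chromosome 3 therefore stood apart from them in the nascent libraries, and chromosome 1 in the bulk library. The mean of the 10 median differences lay between -0.15 and 0.02 on those 13.

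Along chromosome 3 the difference was not even. In runs of 12 neighbouring genes the mean of the library medians was between 0.48 and 1.11 in all runs except one, and 1.59 in the last 4 genes, from *GIT1* to YCR101C. The exception ran from *CWH43* to *FEN2*, where it was -0.11. On chromosome 1 the 7 runs of 12 genes ranged from -0.64 to -0.17. Together the 2 chromosomes held 110 of the 501 genes whose gene body was above bulk in all 10 and 55 of the 829 below. What sets these chromosomes apart was not tested. Without them 7.67% of 5100 gene bodies were above bulk and 15.2% below.

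**Figure D3:**
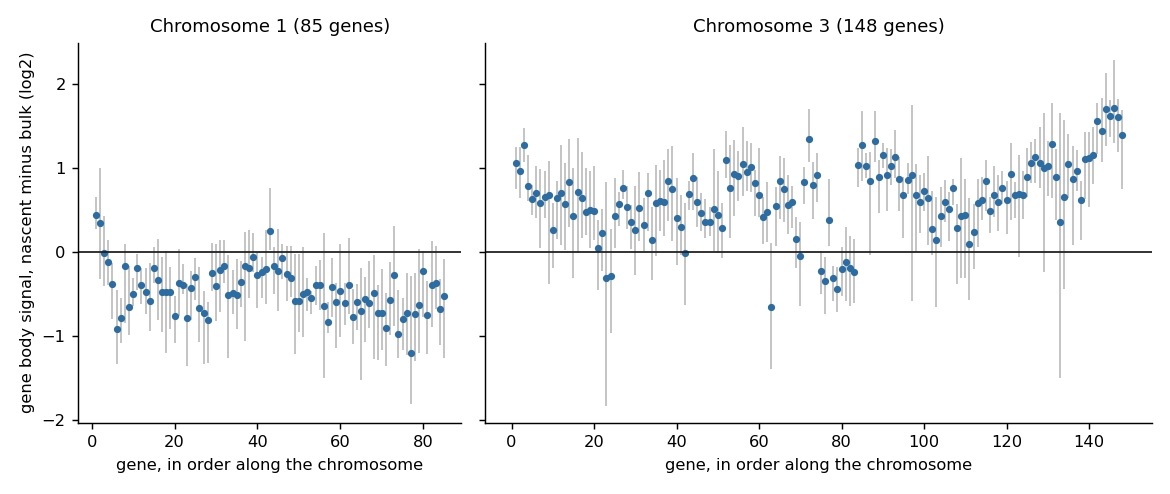
Gene body signal, mean log2 difference of the 10 nascent libraries from bulk (points) with the lowest and highest library (grey bars), for the 85 genes of chromosome 1 and the 148 of chromosome 3 in chromosome order. The line at 0 is bulk. Most of chromosome 1 lies below it and most of chromosome 3 above it, with a block of genes near the middle of chromosome 3 below or at the line.

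The gene bodies farthest above bulk were on the right arm of chromosome 3. *GIT1*, a glycerophosphoinositol transporter, ranged from 0.622 to 0.883 with a median of 0.780 in nascent libraries and was 0.180 in bulk, a mean difference of 1.62 ± 0.17 (SD, n = 10). YCR099C stood 1.71 ± 0.31 and *HMRA1* 1.7 ± 0.32 above bulk (SD, n = 10 each). *HMRA1* is the silent copy of a mating type gene whose sequence can also stand at the mating type locus, and how reads that match several places were assigned is not given in the sources used here. All 3 stayed above bulk in all 10 when each signal was divided by the median gene body signal of its chromosome.

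The gene bodies farthest below bulk were those of *MRPL20*, *LYS4* and *SSC1*. *MRPL20* encodes a protein of the large mitochondrial ribosomal subunit, and its gene body signal was 0.241, 0.375, 0.119, 0.138 and 0.119 in replicate 1 and 0.166, 0.170, 0.233, 0.124 and 0.264 in replicate 2, against 1.24 in bulk. The mean difference was -2.23 ± 0.38 (SD, n = 10), and at 25 min the signal was 1.00. *LYS4*, homoaconitase of lysine synthesis, ranged from 0.798 to 1.18 with a median of 1.03, against 1.93 in bulk. *SSC1*, on chromosome 10, the Hsp70 chaperone of the mitochondrial matrix, ranged from 0.509 to 0.862 with a median of 0.688, against 1.41. Measured to the nearest nascent library, *MRPL20* lay 1.49 below bulk on the log2 scale, and *LYS4*, the next gene, 0.66.

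*MRPL20* lies between *HBS1* and *PRP16*, and the low signal spanned all 3 neighbours. The +1 region of *HBS1*, a GTPase that rescues stalled ribosomes, was the farthest below bulk of all, with 0.120, 0, 0.0803, 0.212 and 0.173 in replicate 1, 0.0354, 0.116, 0.327, 0.120 and 0.463 in replicate 2 and 1.31 in bulk. The +1 region of *MRPL20* was between 0.101 and 0.799 against 1.82. That of *PRP16*, a splicing helicase, was listed at 0 in all 10 nascent libraries and stood at 0.112 in bulk. The promoter signal of *HBS1* had a nascent median of 0.183 against 0.856 in bulk. At 25 min these +1 regions stood at 0.896 for *HBS1*, 2.23 for *MRPL20* and 0.051 for *PRP16*. Divided by the mean of its own gene, the +1 signal of *MRPL20* no longer differed in one direction, with a mean of 0.06.

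Over all genes the +1 region had the largest shift toward lower nascent signal among the 3 signals. In all 10 libraries 996 genes (18.7%) were below bulk and 242 (4.54%) above, and the median difference was -0.26 ± 0.023 in replicate 1 and -0.055 ± 0.024 in replicate 2 (SD, n = 5 each). With each library centred on a median difference of 0, 584 were below (11%) and 537 above (10.1%), a balance that centring sets by construction. Divided by the mean of the gene, which does not depend on the scale of the library, 728 were below (13.7%) and 236 above (4.43%). *IES6*, a subunit of the INO80 remodelling complex, was below bulk with +1 signals between 0.0258 and 0.219 and a median of 0.118, against 0.617. In the other direction *YUR1*, a mannosyltransferase on chromosome 10, ranged from 0.442 to 1.11 with a median of 0.630, against 0.098 in bulk, a mean difference of 1.96 ± 0.38 (SD, n = 10). *PHO87* and YCR099C, the next above, also had promoters above bulk.

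A further 3 +1 regions stood out after division by the mean of the gene and were chosen after their values were seen. *MSN4*, a transcription factor of the stress response, ranged from 0.789 to 1.52 with a median of 1.22, against 0.515 in bulk. YIL163C ranged from 1.20 to 1.67 with a median of 1.41, against 0.809. *MRX9* lay below, from 0.280 to 0.725 with a median of 0.336, against 1.09. In all 3 both replicates lay on the same side of bulk.

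The arrays of nucleosomes over gene bodies differed from bulk in more genes than any signal did. Position contrast was below bulk in all 10 libraries in 1594 of 4063 genes (39.2%) and above in 646 (15.9%). The median contrast was between 0.103 and 0.157 in nascent libraries and 0.225 in bulk, and the median difference was -0.09 ± 0.016 (SD, n = 10). With each library centred, 1006 were below (24.8%) and 1041 above (25.6%). With bulk moved onto the nascent profile by strand, 1893 were below, 348 above and the median difference was -0.13, and without chromosomes 2 and 10, 1415 of 3493 were below and 477 above. On chromosome 2 the direction was the opposite, with a median difference between 0.12 and 0.15 in all 10 libraries. There 141 of 305 genes were above (46.2%) and 48 below (15.7%), and the median bulk contrast was -0.16. Its profiles lay 60 bp out of place in bulk and 40 bp in nascent chromatin. The peak and trough bins are therefore displaced there from the features they are named for. Whether this sets the direction was not tested. On each of the 13 chromosomes in place the mean of the library medians was between -0.12 and -0.08, and on chromosome 10 it was -0.16. The spread over genes was also smaller in nascent chromatin, with an SD over genes of 0.211 ± 0.020 (SD, n = 10) against 0.347 in bulk. All 10 libraries lay below bulk, and the highest, 0.258, was the shallow one at 4 min of replicate 1.

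Genes with a strong array in bulk had a weaker one in nascent chromatin, and genes whose bulk signal was higher at the average trough positions than at the peaks, a contrast below 0, stood nearer to 0. Of 5 equal groups of genes, the one with the highest bulk contrast had a median of 0.60 in bulk and between 0.24 and 0.35 in nascent libraries. In the lowest group it was -0.30 in bulk and between -0.14 and -0.11. The groups were made with the bulk values themselves, so some approach to the middle follows from the sorting, and no test is given. Of the 2921 genes with a bulk contrast above 0, 1577 were below bulk in all 10 and 79 above. Of the 1142 with one below 0, 567 were above bulk and 17 below.

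**Figure D4:**
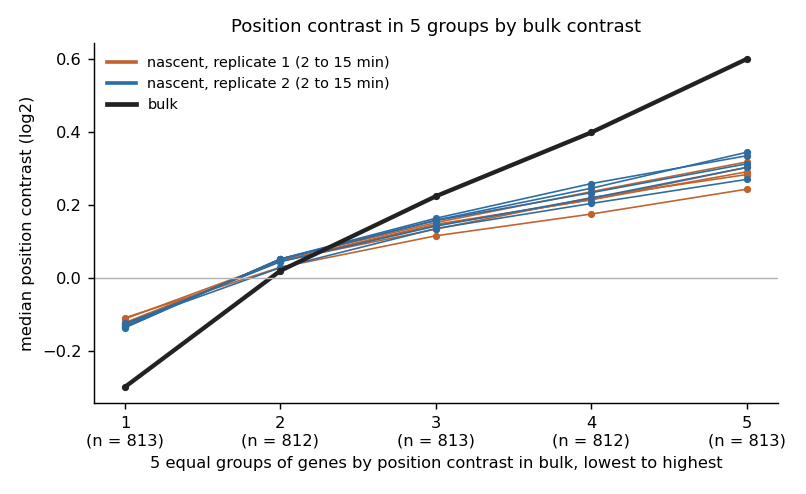
Median position contrast (log2 of peaks over troughs) in 5 equal groups of the 4063 genes, sorted by their contrast in bulk. Thin lines are the 10 nascent libraries and the thick line is bulk. The nascent lines are flatter than that of bulk, from about -0.12 to 0.30 where bulk goes from -0.30 to 0.60.

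Named genes followed both directions. *NVJ1*, which joins the nucleus to the vacuole, had a contrast of 0.20, 0.05, 0.30, 0.33 and 0.38 in replicate 1 and 0.15, 0.17, 0.31, 0.25 and 0.22 in replicate 2, against 1.01 in bulk. The mean difference was -0.78 ± 0.10 (SD, n = 10), with every library far below bulk. *TED1*, which remodels GPI anchors, differed by -0.69 ± 0.05, *MRX6* by -0.65 ± 0.06 and *JSN1*, an RNA-binding protein of the Puf family on chromosome 10, by -0.65 ± 0.08 (SD, n = 10 each). In all 4 the highest nascent value, 0.38 at *NVJ1*, was well under the lowest bulk value, 0.82 at *JSN1*. These sizes depend on the offset between the profiles. With bulk moved onto the nascent profile by strand the mean difference was -0.22 at *NVJ1*, -0.36 at *TED1*, -0.50 at *MRX6* and -0.42 at *JSN1*, with all 10 libraries still below.

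The genes with the largest margin above bulk had strongly negative contrast there. *ALG7*, on chromosome 2, which catalyses the first step of N-glycan assembly, had a contrast of -1.05 in bulk and between -0.51 and -0.03 with a median of -0.33 in nascent libraries. *TOA1*, the large subunit of TFIIA, went from -0.50 in bulk to between -0.03 and 0.26, and its mean difference was 0.59 ± 0.09 (SD, n = 10). *ENV7*, a vacuolar membrane kinase, stood 0.55 ± 0.07 above bulk and *DDC1*, a subunit of the DNA damage checkpoint clamp, 0.55 ± 0.07 (SD, n = 10 each). Only *TOA1* had nascent values above 0, in 7 of 10 libraries, and the other 3 kept the trough positions as the higher ones. With bulk moved, the mean difference was 0.45 at *ALG7*, 0.27 at *TOA1*, 0.20 at *ENV7* and 0.17 at *DDC1*, with all 10 still above.

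By class of gene, the contrast of promoters listed as SAGA-dominated was below bulk in 103 of 376 and above in 58, against 1414 and 530 of 3430 listed as TFIID-dominated. The SAGA-dominated genes had a lower contrast in bulk to begin with, a median of 0.05 against 0.26. Of 9 hexose transporter genes, which include *HXT1*, *HXT8*, *HXT10*, *HXT13* and *HXT14*, these 5 were above bulk in all 10 and *HXT2* below, against 15.9% above and 39.2% below of all genes. With bulk moved 4 of 9 were above and 0 below. *HXT8*, on chromosome 10, went from -0.51 in bulk to between -0.16 and 0.03, a mean difference of 0.42 ± 0.06 (SD, n = 10). *HXT2*, the one below, went from 0.35 to between -0.11 and 0.34. Against the same shares, proteasome genes had 10 of 32 below and 2 above, meiotic genes 3 of 22 below (13.6%) and 8 above (36.4%), and ribosomal protein genes 5 of 83 below and 10 above, with a median contrast near 0 in both kinds of chromatin.

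Of 11 histone genes, 4 had a promoter below bulk in all 10 libraries and 0 above (14.4% and 8.27% of all genes), and the median of the mean differences was -0.66. Divided by the mean of the gene 2 of 11 were below and 0 above, against 9.09% and 7.65% of all genes. Without chromosomes 2 and 10, 2 of 7 undivided promoters were below. The 4 were *HTA2* and *HTB2*, the divergent H2A and H2B pair on chromosome 2, *HHT2*, an H3 gene, and *HTZ1*, the H2A.Z gene. The promoter signal of *HTA2* was 0.286, 0.354, 0.0894, 0.385 and 0.458 in replicate 1, 0.167, 0.373, 0.245, 0.158 and 0.682 in replicate 2 and 0.718 in bulk, a mean difference of -1.07 ± 0.60 (SD, n = 10). *HTB2*, with which it shares its upstream region, differed by -1.06 ± 0.57 (SD, n = 10), so the pair is not 2 independent promoters. At 25 min *HTA2* stood at 2.51 and *HTB2* at 2.25.

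Glycolytic genes were lower over the gene body. Of 17 genes, 9 were below bulk in all 10 and 0 above, where all genes had 15.5% below, and the median of the mean differences was -0.28. The 9 were *ADH1*, *CDC19*, *ENO2*, *FBA1*, *GPM1*, *HXK2*, *PGI1*, *TDH2* and *TPI1*, and without chromosomes 2, with *PGI1*, and 10, with *TDH2*, 7 of 14 were below. *CDC19* is on chromosome 1, where 52 of 85 gene bodies were below bulk in all 10. *ENO2*, an enolase, ranged from 0.260 to 0.791 with a median of 0.549, against 1.14 in bulk, and *ADH1*, the main alcohol dehydrogenase of fermentation, from 0.288 to 0.633 with a median of 0.517, against 1.05. *TDH2*, *ENO2* and *ADH1* have near-identical paralogs, so reads could be split between copies. Divided by the mean of the gene, the list had 1 of 17 below and 0 above, against 5.33% and 12.1% of all genes, where most of that mean is the gene body itself.

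Of the other lists, proteasome promoters had 6 of 33 below and 4 above, against 14.4% and 8.27% of all genes. Meiotic genes had 3 of 31 gene bodies below (9.68%) and 5 above (16.1%), against 15.5% and 9.39%. The phosphate-regulated genes had 1 of 9 promoters below and 1 above, and the 4 subtelomeric *PAU* and *COS* genes compared had 0 on either side. By the occupancy of RNA polymerase II listed in the files, the lowest of 4 equal groups had 17% of promoters below and the highest 13.9%.

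Gene body signal went with the replication time fit that the files list for each gene. Genes were sorted by this fit, with chromosomes 1 and 3 left out, and put in 4 equal groups. The unit and direction of the fit are not given in the sources used here, and the genes the study lists as early-replicating had a higher median fit, 49, than the late-replicating ones, 43.4, so the groups are called by their fit and not early or late. In the group with the lowest fit, 340 of 1275 gene bodies were below bulk in all 10 (26.7%) and 15 above (1.18%), and in the group with the highest, 68 were below (5.33%) and 233 above (18.3%). Across 5100 genes Spearman's rho between the fit and the mean difference was 0.42, as a description, since neighbouring genes share the fit and all share the libraries. Divided by the mean of the gene, rho was 0.01, and the position contrast had a rho of 0.01 over 3902 genes. The early-replicating genes that the study lists near origins had 27 of 192 gene bodies below and 12 above. The late-replicating ones had 28 of 173 below and 20 above, against 15.5% below and 9.39% above of all genes. For promoters it was 37 and 8 of the early and 16 and 17 of the late, against 14.4% and 8.27% of all genes.

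The group with the lowest fit drew nearer to bulk over the chase. Its median difference was -0.37, -0.38, -0.29, -0.24 and -0.20 from 2 to 15 min in replicate 1 and -0.19, -0.18, -0.11, -0.04 and 0.02 in replicate 2. In the group with the highest fit it went from 0.03 to -0.03 in replicate 1 and from 0.23 to 0.11 in replicate 2. The distance between these groups narrowed from 2 to 15 min in both.

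**Figure D5:**
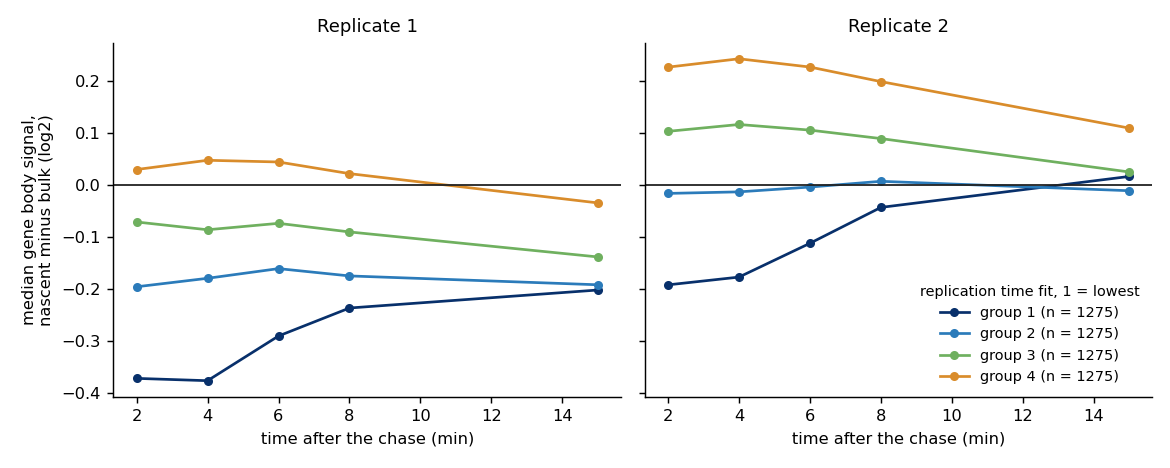
Median gene body difference from bulk (log2) against minutes after the thymidine incubation, for 4 groups of 1275 genes each by replication time fit, chromosomes 1 and 3 left out, in replicate 1 (left) and replicate 2 (right). Each point is the median over the genes of 1 library. The group with the lowest fit goes up from -0.37 to -0.20 in replicate 1 and from -0.19 to 0.02 in replicate 2, and the lines draw together.

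Change over time was tested within the 10 nascent libraries, which does not use bulk, by the slope on minutes in limma with Benjamini-Hochberg adjustment over all genes. Gene body signal rose in 133 genes (2.49%) and fell in 22 (0.413%). Of the 133, 74 were in the group with the lowest replication time fit, 5.80% of its genes, and 11 in that with the highest, 0.863%. With the replicate as a block 232 rose and 77 fell, 4.35% and 1.44%, of which 140 and 6 were in the lowest group and 12 and 18 in the highest. On chromosome 3, 17 of 148 rose and 1 fell. Leaving out 1 library moved the 155 calls by over 1.5 times in 4 cases. Without replicate 1 at 2 min 37 genes passed in all, without replicate 2 at 15 min 44, without replicate 1 at 15 min 90 and without replicate 2 at 4 min 98, while the other 6 fits gave 111 to 215.

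Genes on one side of bulk had shares of trends near those of all genes. The side rule used the same 10 libraries as the slope and leaves out genes that cross bulk. These shares therefore cannot show whether genes apart from bulk move over the chase. Of the 829 gene bodies below bulk in all 10, 18 rose (2.17%) and 2 fell, and of the 501 above, 8 rose (1.60%) and 3 fell, near the 2.49% and 0.413% of all genes. For promoters 1 of 767 below and 0 of 441 above had a trend, and no ribosomal protein promoter had one. From 2 to 15 min the ribosomal protein promoters had a median slope of -0.01 log2 per min, and the medians at 25 min were above bulk.

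The largest slopes of gene body signal were at *HIS2*, YCR087W and *CSS2*. The gene body of *HIS2*, histidinol phosphatase, was 0.151, 0.174, 0.202, 0.081 and 0.753 in replicate 1 and 0.061, 0.091, 0.342, 0.391 and 0.982 in replicate 2, a slope of 0.17 ± 0.026 log2 per min (SE, adjusted p = 0.00134). It passed also without any one library, with an adjusted p of at most 0.0338, and bulk was 0.830. YCR087W rose by 0.18 ± 0.040 log2 per min (adjusted p = 0.0222) and *CSS2* by 0.18 ± 0.037 (adjusted p = 0.0158), and each was lost in 2 of the 10 fits that left out a library. The steepest falls of gene body signal were YOL166C at -0.08 ± 0.018, YOR309C at -0.08 ± 0.020 and YDR417C at -0.07 ± 0.018 log2 per min, with adjusted p of 0.0208, 0.0336 and 0.0336 (SE throughout). Among histone genes *HTA1* rose by 0.10 ± 0.022 (adjusted p = 0.0192), *HTB1* by 0.06 ± 0.016 (adjusted p = 0.0343) and *HTB2*, on chromosome 2, by 0.05 ± 0.012 (adjusted p = 0.0282), 3 of the 11 measured. The gene body of *HTA1* was 0.455, 0.252, 0.731, 0.795 and 1.17 in replicate 1 and 0.498, 0.746, 0.751, 1.18 and 1.25 in replicate 2, reaching the 1.16 of bulk by 15 min in both.

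Promoter signal rose in 12 genes (0.225%) and fell in 2 (0.0375%). *GLK1*, glucokinase, on chromosome 3, had the clearest course, with 0.228, 0.118, 1.02, 1.38 and 2.03 in replicate 1 and 0.293, 0.294, 0.651, 1.33 and 1.86 in replicate 2, against 0.981 in bulk. Its slope was 0.22 ± 0.037 log2 per min (SE, adjusted p = 0.0309), and it passed from below to above bulk in both replicates between 4 and 8 min. At 25 min, sampled in replicate 2 alone, it was 0.601 and again below bulk. YCL041C, whose locus number is next to that of *GLK1*, rose by 0.24 ± 0.037 and YKR073C by 0.23 ± 0.041, each with an adjusted p of 0.0309. YCL041C lies close to *GLK1* on chromosome 3 and had a like course, so they may not be 2 independent promoters. At 25 min YCL041C was 0.751 against 0.914 in bulk, and YKR073C 1.12 against 0.603. *DBP2*, a DEAD-box RNA helicase, fell by 0.16 on the log2 scale per min, from 0.589 to 0.129 in replicate 1 and from 0.983 to 0.156 in replicate 2 between 2 and 15 min, and *IFA38*, a reductase of very long chain fatty acid synthesis on chromosome 2, fell by 0.10 (adjusted p = 0.0309 for both). None of these 5 passed in every fit without one library. The adjusted p then went up to 0.163.

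In the +1 region YER121W alone passed, rising by 0.24 ± 0.033 log2 per min (SE, adjusted p = 0.0244), 0.0188% of all genes, and 0 fell, out of 644 genes with an unadjusted p under 0.05. Position contrast rose in 1 of 4063 genes (0.0246%) and fell in 2 (0.0492%), and 371 had an unadjusted p under 0.05. *TRZ1*, which trims the 3′ end of tRNA precursors, fell by 0.04 per min, from 0.67 to 0.22 in replicate 1 and from 0.75 to 0.27 in replicate 2 between 2 and 15 min (adjusted p = 0.00999). *RPS10B* fell by 0.04 (adjusted p = 0.0244) and *BSC1* rose by 0.03 (adjusted p = 0.0244). Each of these calls was lost in some of the fits without one library. The median position contrast was below bulk at 2 min and at 15 min alike, with median differences of -0.12 and -0.09 in replicate 1 and -0.10 and -0.08 in replicate 2.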

How the data were processed

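The study pulsed *rtt109Δ* cells with EdU and isolated nascent DNA by NChAP. The authors deposited TSS-aligned coverage (signal) in 20 bp bins for each gene and strand, relative to the mean of the library, and bins with other entries (1.66% of those read) were taken as missing. Per the labels, CASAVA 1.7.0 was used, and the aligner, the handling of repeated sequence and the genome build are not given in the sources used here. The values are the deposited signal, recorded under the unit other because the columns also hold letters. Rows of 6 further names (37956 rows) match no sample and were not used.

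F and R rows were averaged. Genes were kept with at least 80% of the listed bins of each window, at least 10 listed gene body bins and a mean gene body signal of at least 0.2. Rows end near the transcript end, so the share was taken of the bins listed. Peaks and troughs were read from the mean bulk profile. Differences are on log2(value + 0.1), which understates low signals. A gene was placed above or below bulk if all 10 nascent libraries were, and genes were named by the largest margin (4 per direction for promoter and contrast, 3 for +1 and gene body, with a locus tag in R64), and for trends by the 3 largest slopes per direction. Other names were chosen after their values were seen. The members and lists were chosen with earlier results of these data known. The 5 genes in both the early and the late list were left out of both.

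Trends were fitted with limma 3.58.1 in R 4.3.3 without a block, and the fits and the side rule were tested on simulated data. Libraries of a replicate come from 1 culture, so the numbers pair the libraries. Deviations from the time point means correlated by 0.02 to 0.04 on average over 10 pairs of time points. Such a correlation over genes cannot show a shift shared by all genes. The replicates did differ by one, with a mean of the median gene body differences of -0.13 in replicate 1 and 0.045 in replicate 2. Without a block this shift stays in the residual, and gene body trends numbered 155 without the block and 309 with it. Python 3.11.15 with numpy 2.4.6, scipy 1.17.1 and matplotlib 3.10.9 was used otherwise. Alternatives were the pseudocount, the filter, centring, the strand, the libraries used, scaling within the gene, the nucleosomes used, the block and the time scale. Leaving out chromosomes 1 and 3 or 2 and 10, moving bulk by the mean offset of the nascent profiles (16.6 bp on W genes and 11 bp on C genes, by linear interpolation, which also smooths it), adding 0 or 25 min alone, scaling by chromosome and the fuller set of alternatives for ribosomal protein genes were added after seeing the data. Depth of 4.94 to 78.1 reads per bin limits genes near 0, and p-values measure the spread between these libraries, from 2 cultures.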

Additional observations from a re-analysis of the deposited data

Results flagged for a closer look

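Among the 10 nascent libraries, replicate 1 at 4 min, the shallowest, stood apart from the others in the spread of position contrast over genes, with an SD of 0.258. The same library stood apart at YCR099C, with a promoter signal of 2.62 and a +1 signal of 5.30. On chromosome 1 the median promoter difference of replicate 2 at 15 min, -0.16, stood apart from the other 9. Chance sets about 1 in 20 groups of libraries apart in this way.

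The median gene body difference from bulk was below 0 in all 5 libraries of replicate 1, with a mean of -0.13, and above 0 in all 5 of replicate 2, with a mean of 0.045. This difference between the replicates was not tested.

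The library at 25 min, which the comparison did not use, lay above bulk over promoters, with a median difference of 0.71, and in the +1 region, with 0.094. Its median signal over ribosomal protein genes was 0.981 from -200 to -100 bp and 0.822 from -100 to 0 bp, and over all genes 1.21 and 1.14. It is 1 library of replicate 2 with no counterpart in replicate 1.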

How the results depend on the processing

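Of 356 comparisons of counts and medians between the settings used and their alternatives, 294 stayed within 1.5 times the count or within the spread, and 62 moved. Of 815 comparisons for named genes, 618 kept direction and threshold or spread, 71 moved, 124 lost the threshold and 2 reversed, both after division by the mean of the gene: the +1 difference became -0.044 at YCR099C and 0.057 at *MRPL20*. With libraries centred, the +1 region had 537 genes above and 584 below, gene bodies had 781 above, and position contrast had 1041 above and 1006 below. With 0 and 25 min added, 306 promoters were below, 158 +1 regions above, 320 gene bodies above and 11 ribosomal protein promoters below. With 25 min alone added, 349 promoters and 13 ribosomal protein promoters were below. With bulk moved onto the nascent profile by gene strand, 348 genes had a contrast above and the median difference was -0.13. Leaving out chromosomes 2 and 10 moved no count by over 1.5 times, time trends included. Division by the mean of the gene left 485 promoters below. A pseudocount of 1 made the median contrast difference -0.048. Leaving out libraries or a replicate gave 445 to 1326 promoters above and 781 to 1511 below, 245 to 941 +1 regions above and 1013 to 1744 below, and 502 to 1517 gene bodies above and 833 to 1774 below, where fewer libraries make the rule easier to meet.

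The trends depended most on the setting. Promoter trends numbered 6 on log2 of minutes, 4 with a pseudocount of 1, and 0 with no signal minimum or with F rows alone. In the +1 region the pseudocount of 1 and no minimum each gave 0. Gene body trends numbered 309 with the replicate block, 242 with a pseudocount of 1, 100 with no minimum and 15 with F rows alone. Contrast trends numbered 0 on log2 of minutes, 1 with a pseudocount of 1, 1 with no minimum and 0 with F rows alone. Leaving out libraries or a replicate gave 0 to 21 promoter, 0 to 1 +1, 0 to 215 gene body and 0 to 5 contrast trends. The replicate block moved no other count by over 1.5 times. The cause was not tested. Bulk is 1 library, so its own error is unknown, and the shallow library at 4 min limits genes near 0.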
